A study of Mus musculus with 27 samples.

Results

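Metallothioneins and zinc transporters were examined as a group of 6 genes, out of 55487 genes in the count table. The members were Mt1, Mt2, Mtf1, Slc30a1, Slc39a10 and Slc39a14, found by gene symbol. They were picked because Mt1 was higher with the synthetic compound GW in all 3 cell types. Their values under GW are therefore given as a description with no test, and tests are given for saringosterol, for cell types under vehicle and for differences in the saringosterol response. These tests use the vehicle libraries against which Mt1 was picked, so for Mt1 they are not independent of that choice. All 6 members passed the filter on low counts in all 3 cell types.

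Metallothioneins are small cysteine-rich proteins that hold zinc and copper ions, and Mt1 and Mt2 are the forms made in most tissues, including liver. Their genes are switched on by MTF1, a transcription factor (gene Mtf1) that senses free zinc and binds short DNA stretches called metal response elements. Zinc leaves the cytosol through ZnT carriers (the Slc30a family) and enters it through ZIP carriers (the Slc39a family). Slc30a1 encodes ZnT1, the exporter of the cell surface and itself a known target of MTF1. Slc39a10 and Slc39a14 encode the importers ZIP10 and ZIP14; ZIP14 also carries iron and manganese and is known in liver.

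The study treated primary mouse hepatocytes, microglia and macrophages grown from bone marrow with M-CSF (BMDM) for 24 h with 1 µM GW, 10 µM 24(S)-saringosterol or an ethanol vehicle, and sequenced 3 libraries for each of the 9 groups. The labels spell the synthetic compound as GW3596, GW3964 and GW3965; GW3965 is known as an agonist of the liver X receptors, and saringosterol is a sterol of algae and plants. Genotype, strain, age and whether the 3 libraries of a group came from separate animals are not given in these labels, so p-values measure only the spread between libraries. Microglia and BMDM were treated in DMEM/F12 that held M-CSF, insulin, transferrin, selenite and albumin, whereas hepatocytes were kept in Williams' E medium; the cell type and the medium cannot be told apart. Microglia came from mixed glial cultures by shaking.

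Libraries held 30295862 to 41040268 counts. A count of 0 allowed up to 3 counts, or 0.0731 to 0.099 CPM (counts scaled to library size), and this floor covers counting error only. The 7 hepatocyte markers summed to between 8460 and 9230 CPM in hepatocytes and to at most 0.138 CPM elsewhere, and the 7 macrophage markers to between 34800 and 39700 CPM in microglia, 21500 and 29300 CPM in BMDM and 331 and 378 CPM in hepatocytes. In saringosterol BMDM the macrophage markers stood at 21500 to 22700 CPM, against 27600 to 29300 CPM in vehicle BMDM; their part in the BMDM results was not tested. The 6 microglia markers summed to between 783 and 1000 CPM in microglia, 222 to 270 CPM in BMDM and 94.8 to 106 CPM in hepatocytes, but Siglech, one of them, stood at or under the floor in every microglia group. One library stood apart: 10 interferon-stimulated genes, listed after the values were seen, summed to 731 CPM in saringosterol BMDM replicate 3, against 97.5 and 104 CPM in the other saringosterol BMDM libraries and 261 to 421 CPM in vehicle BMDM. Calls of members and carriers in saringosterol BMDM are given with and without it.

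Mt1 and Mt2 lie side by side on mouse chromosome 8. On GRCm38, Mt1 (ENSMUSG00000031765) spans 94179082 to 94180327 and Mt2 (ENSMUSG00000031762) spans 94172664 to 94173568, both on the plus strand, with 5513 bases between them. An antisense gene, Gm45774, covers 432 of the 588 exonic bases of Mt2 (73.5%) and had between 0 and 9 counts in every library. How reads in shared bases were counted, and whether strand was used, is not given in the sources used here, so every level and fold of Mt2 is uncertain. The other members lie elsewhere: Mtf1 (ENSMUSG00000028890) on chromosome 4, 124802104 to 124849800; Slc30a1 (ENSMUSG00000037434) and Slc39a10 (ENSMUSG00000025986) on chromosome 1, 191906767 to 191913247 and 46807544 to 46892852; Slc39a14 (ENSMUSG00000022094) on chromosome 14, 70303469 to 70351425. Of the exonic bases of Mtf1, 8.09% are shared with the opposite-strand gene 1110065P20Rik (163 to 437 counts per library), and of those of Slc30a1, 8.92% with the antisense gene 1700034H15Rik (2 to 15 counts).

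**Figure D1:**
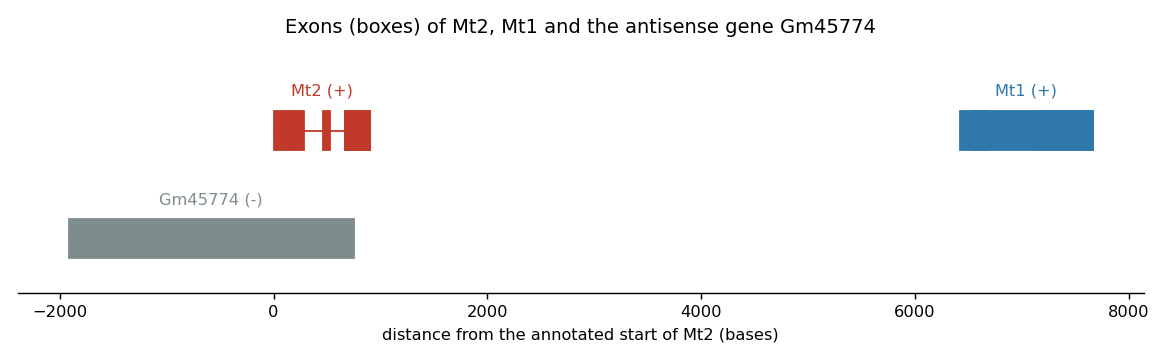
Exons of Mt2, Mt1 and Gm45774 (boxes) against the distance in bases from the annotated start of Mt2, with the strand in brackets. Gm45774 covers 73.5% of the exonic bases of Mt2 and ends before Mt1, whose exons of all annotated transcripts together fill its whole span.

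The sequences below are the 250 bases before the RefSeq start (GRCm38.p6) of the members in which a metal response element core was found. MTF1 is known to read such cores, and whether it reads the ones shown was not tested. A core was searched on both strands as TGCACNC or TGCGCNC, and its matches are in capitals. Sequences run 5′ to 3′ on the plus strand, which is the coding strand of all 3 genes.
Mt1, chr8:94178839-94179088: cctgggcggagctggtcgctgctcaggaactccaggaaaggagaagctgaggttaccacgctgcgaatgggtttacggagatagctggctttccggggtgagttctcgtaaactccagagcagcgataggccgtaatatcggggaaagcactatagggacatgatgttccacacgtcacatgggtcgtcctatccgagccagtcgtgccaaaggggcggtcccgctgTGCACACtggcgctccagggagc
Mt2, chr8:94172368-94172617: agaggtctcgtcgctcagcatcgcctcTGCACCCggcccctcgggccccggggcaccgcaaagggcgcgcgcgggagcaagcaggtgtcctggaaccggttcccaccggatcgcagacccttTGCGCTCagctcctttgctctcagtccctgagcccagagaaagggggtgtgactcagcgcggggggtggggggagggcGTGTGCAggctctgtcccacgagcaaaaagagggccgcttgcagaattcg
Slc30a1, chr1:191906531-191906780: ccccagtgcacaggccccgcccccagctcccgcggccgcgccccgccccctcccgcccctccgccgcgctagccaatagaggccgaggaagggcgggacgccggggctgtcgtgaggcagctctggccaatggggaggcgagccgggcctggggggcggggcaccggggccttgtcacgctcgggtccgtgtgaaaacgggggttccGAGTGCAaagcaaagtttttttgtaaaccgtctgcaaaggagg

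The Mt1 window held 1 core, which began at position -23 counted from the start. The Mt2 window held 3 cores, at -223 and -128 on the plus strand and at -50 on the minus strand. The Slc30a1 window held 1, at -43 on the minus strand. Of 32851 mouse promoter windows of the same length, 21.4% held at least 1 core, 5.17% at least 2 and 1.26% at least 3. No core was found in the windows of Mtf1 (1) or Slc39a10 (2); 5 of the 6 members had an entry, and Slc39a14 was not among them. An antioxidant response element (TGACNNNGC) was matched in the windows of Mt2 and Slc30a1 and in 10.2% of all windows, and it shares no letters with the cores shown. The liver X receptor element DR4 (a direct repeat of AGGTCA with 4 bases between the copies) was matched in none of these windows and in 0.0152% of all windows. The windows do not cover the bases before annotated starts further downstream. These lie 122 and 152 bases after the RefSeq start for Mt1, 46 and 242 for Mt2 and 475 for Slc30a1. The core counts therefore hold for the windows only and do not give the number of elements of a gene. A missing match says only that the letters are not in the window.

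Under vehicle, hepatocytes held more Mt1 and Mt2 RNA than either macrophage type and less RNA for the zinc exporter Slc30a1. In such bulk samples, fewer cells of a type and less RNA per cell cannot be told apart. Levels between genes are compared in TPM, the authors' deposited values scaled to gene length and library. Mt1 averaged 754 ± 14.7 TPM in vehicle hepatocytes, 157 ± 4.32 TPM in vehicle microglia and 151 ± 14.8 TPM in vehicle BMDM (SD, n = 3 each). It was the most abundant of the 6 members per length in all 9 groups. Mt2 averaged 29.4 ± 11.9, 1.91 ± 0.773 and 2.01 ± 0.496 TPM in hepatocytes, microglia and BMDM, so that Mt1 stood 25.7, 82.2 and 75.4 times as high. These ratios carry the overlap of Mt2 with Gm45774, and the length behind the Mt1 values is its whole span of 1246 bases.

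In the edgeR test of vehicle hepatocytes against vehicle microglia, all 6 members were called, 4 higher and 2 lower, where 73.5% of all 18979 tested genes were called (36.2% higher, 37.3% lower). Mt1 had 277, 272 and 281 CPM in hepatocytes, against 70.2, 73.7 and 70.5 CPM in microglia. The ranges lay far apart, and the log2 difference was 1.95 ± 0.07 (SE; adjusted p = 3.9e-23). Mt2, which binds the same metals, had 3.59, 7.31 and 4.32 CPM in hepatocytes, against 0.55, 0.448 and 0.231 CPM in microglia (log2 difference 3.61 ± 0.36, adjusted p = 2.8e-10). Mt2 rested on few reads: 174 to 527 counts per hepatocyte library and 8 to 71 in microglia and BMDM.

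Slc39a14, the ZIP14 importer, had 55.0, 56.4 and 54.0 CPM in vehicle hepatocytes, against 15.7, 14.3 and 16.3 CPM in vehicle microglia. This was a log2 difference of 1.84 ± 0.11 (adjusted p = 6.8e-17). Slc39a10, the ZIP10 importer, ran the other way, with 22.01, 23.4 and 22.8 CPM in hepatocytes and 111, 105 and 104 CPM in microglia (log2 difference -2.23 ± 0.09, adjusted p = 1.5e-21). The exporter gene Slc30a1 was also lower in hepatocytes, at 29.2 ± 2.23 CPM against 61.6 ± 0.982 CPM in microglia (-1.08 ± 0.06, adjusted p = 1.2e-17). Mtf1, the sensor, differed least, at 44.4 ± 0.268 CPM against 31.9 ± 2.01 CPM (0.48 ± 0.07, adjusted p = 1.2e-07). Against vehicle BMDM (75.2% of genes called, 37.5% higher and 37.7% lower), hepatocytes had the same 4 members higher and the same 2 lower, with log2 differences of 1.90 for Mt1, 3.43 for Mt2, 0.89 for Mtf1, 2.69 for Slc39a14, -1.17 for Slc30a1 and -1.48 for Slc39a10.

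Between microglia and BMDM under vehicle 3 of the 6 members were called, Slc39a10, Slc39a14 and Mtf1, all higher in microglia. This share is near that of all genes, of which 46.5% were called (24.6% higher in microglia, 22% lower). Slc39a10 had 107 ± 3.53 CPM in microglia and 63.5 ± 8.34 CPM in BMDM (log2 difference 0.75 ± 0.08, adjusted p = 3.8e-09). Slc39a14 had 15.4 ± 1.02 CPM in microglia and 8.56 ± 1.14 CPM in BMDM (0.85 ± 0.12, adjusted p = 2.7e-07), and Mtf1 had 31.9 ± 2.01 and 24.0 ± 0.518 CPM (0.41 ± 0.07, adjusted p = 7.5e-06). Mt1 differed by less than its spread, at 71.5 ± 1.96 CPM in microglia and 74.1 ± 6.35 CPM in BMDM (-0.05 ± 0.07, adjusted p = 0.58). Mt2 and Slc30a1 were not called either, with log2 differences of -0.17 ± 0.49 and -0.09 ± 0.06. With plain library totals in place of TMM scaling, the median of all genes moved by 0.375 and 0.391 on the log2 scale in the comparisons of hepatocytes with microglia and BMDM, and the direction of each member stayed as given.

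**Figure D2:**
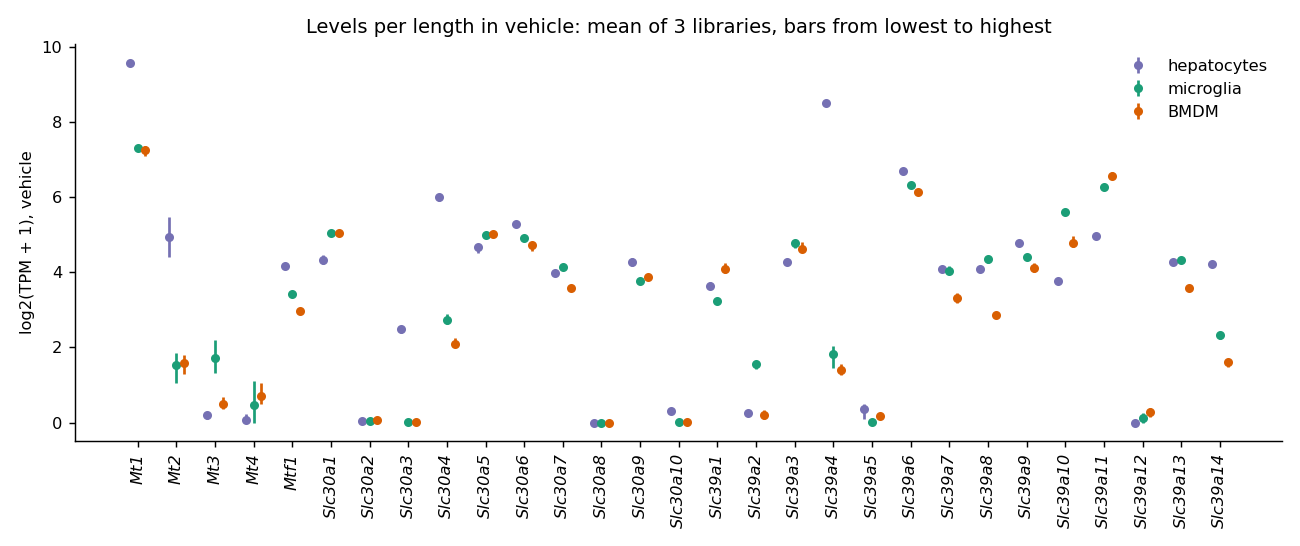
Vehicle levels of Mtf1 and of the metallothionein, Slc30a and Slc39a genes as log2(TPM + 1) for hepatocytes, microglia and BMDM; points are means of 3 libraries and bars run from the lowest to the highest library. Mt1 is the highest point in each cell type, and Slc39a4 stands at 362 TPM in hepatocytes against 2.54 TPM in microglia and 1.62 TPM in BMDM.

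Apart from Slc39a6, the 3 most abundant carriers outside the members differed between hepatocytes and both macrophage types. Among 24 zinc transporter genes under vehicle, Slc39a10 ranked 3 in microglia (47.8 ± 2.04 TPM), 5 in BMDM (26.5 ± 3.07 TPM) and 16 in hepatocytes (12.7 ± 0.610 TPM). Slc30a1 ranked 4 in microglia (32.1 ± 0.629 TPM), 3 in BMDM (31.8 ± 0.678 TPM) and 8 in hepatocytes (18.9 ± 1.73 TPM), and Slc39a14 ranked 16, 16 and 12. Outside the members, the highest in hepatocytes were Slc39a4 (ZIP4, a zinc importer of the cell surface, 362 ± 19.02 TPM), Slc39a6 (ZIP6, 103 ± 4.61 TPM) and Slc30a4 (ZnT4, which loads zinc into vesicles, 63.3 ± 4.12 TPM). In microglia and BMDM they were Slc39a6 (79.1 and 69.5 TPM), Slc39a11 (ZIP11, 75.8 and 93.8 TPM) and Slc30a5 (ZnT5, which loads zinc into the secretory pathway, 30.8 and 31.1 TPM). Of the 21 carriers outside the members 19 were tested. In vehicle hepatocytes 6 were higher and 9 lower than in microglia (73.5% of all genes called), and 10 were higher and 5 lower than in BMDM (75.2%). In vehicle microglia 8 were higher and 4 lower than in BMDM (46.5%). Their median log2 differences were 0.07, 0.17 and 0.10, beside -0.04, -0.02 and 0.00 over all genes.

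The order of the 9 groups by Mt1 level per length began with hepatocytes. GW hepatocytes had 919 ± 44.4 TPM, saringosterol hepatocytes 802 ± 98.8 TPM and vehicle hepatocytes 754 ± 14.7 TPM, and neighbours among these groups overlapped. GW microglia followed with 365 ± 12.6 TPM and GW BMDM with 238 ± 12.3 TPM, each clear of its neighbours. Saringosterol microglia (181 ± 14.7 TPM) and saringosterol BMDM (178 ± 7.93 TPM) overlapped each other, and vehicle microglia overlapped vehicle BMDM at the low end. Mt1 was chosen for its GW values, so this order describes the libraries and carries no test.

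For Slc39a10 the order per length began with saringosterol microglia (50.8 ± 1.05 TPM) and vehicle microglia (47.8 ± 2.04 TPM), which overlapped. GW microglia, at 31.5 ± 1.80 TPM, lay among the BMDM groups. For Slc39a14 and Mtf1 the 3 hepatocyte groups stood above all others, at 16.1 to 17.8 TPM and at 16.1 to 16.9 TPM. Slc30a1 had means between 31.0 TPM in GW microglia and 38.0 TPM in GW BMDM over the microglia and BMDM groups, and all 3 hepatocyte groups stood lower, at 18.9 to 20.4 TPM.

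Under GW, the metallothionein genes stood higher in all 3 cell types, by the choice of members for Mt1. Mt1 had 184, 172 and 170 CPM in GW microglia, against 70.2, 73.7 and 70.5 CPM in vehicle microglia. The groups did not overlap, and the log2 change was 1.29. In BMDM, Mt1 had 123, 117 and 108 CPM with GW, against 76.1, 79.3 and 67.0 CPM with vehicle (log2 change 0.63). In hepatocytes, where its level was highest, it had 332, 349 and 326 CPM with GW, against 277, 272 and 281 CPM with vehicle (log2 change 0.29). None of these groups overlapped with its vehicle, and whether the changes differ between cell types was not tested, since the members were chosen on this contrast. Genes called under GW made up 28.7% of those tested in microglia (13.4% higher, 15.2% lower), 10.4% in BMDM (5.66% higher, 4.76% lower) and 1.11% in hepatocytes (0.721% higher, 0.385% lower).

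Mt2 under GW had 1.09, 2.00 and 1.49 CPM in microglia, against 0.55, 0.448 and 0.231 CPM with vehicle, a log2 change of 1.87 on the few reads named above. In BMDM it had 1.24, 1.97 and 0.87 CPM with GW, against 0.559, 0.486 and 0.345 CPM with vehicle (1.53). In hepatocytes it had 7.09, 10.6 and 6.71 CPM with GW, against 3.59, 7.31 and 4.32 CPM with vehicle (0.69), and the groups overlapped. Several marker lists moved with treatment beside the Mt1 values in microglia. The 6 microglia markers summed to 974 to 1000 CPM with GW, 846 to 856 CPM with saringosterol and 783 to 805 CPM with vehicle, and 6 astrocyte markers summed to 44.3 to 49.9 CPM with GW, 25.1 to 30.6 CPM with saringosterol and 38.0 to 40.2 CPM with vehicle. The 4 endothelial markers summed to 4.62 to 6.04, 11.3 to 11.7 and 13.1 to 15.7 CPM with GW, saringosterol and vehicle, with Tek at or under the floor. The 3 Kupffer cell markers summed to 7.12 to 11.4, 4.65 to 6.32 and 2.81 to 3.8 CPM in the same order. Of these 3, Clec4f was at or under the floor in each group and Vsig4 was so with GW and vehicle. In microglia the 7 macrophage markers summed to 38900 to 39700 CPM with GW and 34800 to 36600 CPM with vehicle. The 4 oligodendrocyte lineage markers summed to 69.1 to 72 CPM with GW and 62.8 to 66.8 CPM with vehicle. Lists moved outside microglia too. In hepatocytes 4 cholangiocyte markers summed to 159 to 164 CPM with GW and 180 to 187 CPM with vehicle. In BMDM 4 neutrophil markers summed to 24.3 to 27 CPM with GW and 37.7 to 48.5 CPM with vehicle. The 3 Kupffer cell markers there summed to 8.14 to 9.74 CPM with GW and 4.06 to 4.81 CPM with vehicle, with Clec4f at or under the floor. The part of these lists in the Mt1 levels was not tested.

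The importer gene Slc39a10 lay lower with GW in microglia, at 70.4, 77.6 and 74.3 CPM, against 111, 105 and 104 CPM with vehicle. The libraries did not overlap, and the log2 change was -0.53. In BMDM it had 49.6, 51.2 and 59.6 CPM with GW, against 57.9, 59.5 and 73.1 CPM with vehicle (-0.26), and in hepatocytes 20.8 ± 2.13 CPM against 22.7 ± 0.687 CPM (-0.12); both pairs overlapped. Slc39a14 changed by -0.15, -0.17 and -0.14 on the log2 scale in microglia, BMDM and hepatocytes. Only in hepatocytes did its libraries not overlap, with 48.2, 50.9 and 50.1 CPM under GW and 55.0, 56.4 and 54.0 CPM under vehicle.

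The exporter gene Slc30a1 had 78.0, 73.5 and 82.5 CPM in GW BMDM, against 63.5, 66.7 and 66.5 CPM in vehicle BMDM (log2 change 0.23, no overlap). In microglia it stood at 62.7 ± 2.66 CPM with GW and 61.6 ± 0.982 CPM with vehicle. The log2 change there was 0.02 with TMM scaling and -0.04 with plain library totals. In hepatocytes it had 31.3 ± 1.11 CPM with GW and 29.2 ± 2.23 CPM with vehicle (0.11). Mtf1, the gene of the factor known to drive Mt1, Mt2 and Slc30a1, had 25.0, 28.5 and 27.7 CPM in GW microglia, against 33.2, 29.6 and 33.0 CPM in vehicle microglia (-0.25). Its changes in BMDM and hepatocytes were 0.01 and -0.06, and the BMDM value was -0.02 with plain library totals. The median change of the 6 members under GW was -0.07 for microglia (-0.01 over all genes), 0.12 for BMDM (-0.01) and 0.02 for hepatocytes (0.00).

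**Figure D3:**
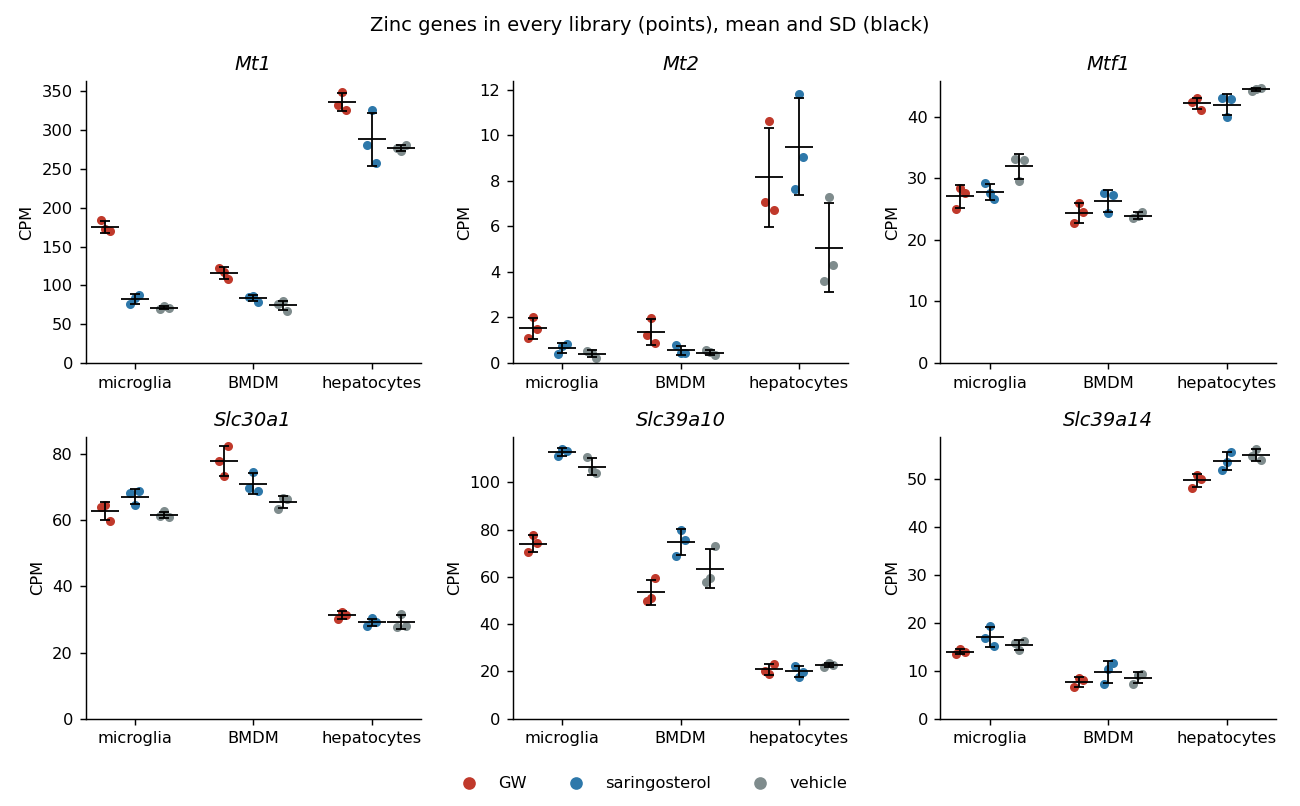
CPM of the 6 genes in every library (points), with mean and SD in black, for GW, saringosterol and vehicle in microglia, BMDM and hepatocytes; each panel has its own linear axis from 0. Mt1 in GW microglia sits at 170 to 184 CPM, above the 70.2 to 73.7 CPM of vehicle microglia, and Slc39a10 sits at 70.4 to 77.6 CPM, below the 104 to 111 CPM of vehicle microglia.

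Of the 6 members 1 was called with saringosterol in microglia, Mt1, where 10.8% of all 16065 tested genes were called (4.19% higher, 6.66% lower). Mt1 was picked for being higher with GW than in these same vehicle libraries, so its p is not independent of that choice. Mt1 had 75.5, 84.2 and 87.7 CPM with saringosterol, against 70.2, 73.7 and 70.5 CPM with vehicle. The libraries did not overlap, and the rise was 0.20 ± 0.05 on the log2 scale (edgeR adjusted p = 0.011). The call was lost without saringosterol microglia replicate 2 (adjusted p = 0.057), without replicate 3 (0.068) and in the fit of all 27 libraries (0.099); the adjusted p ranged from 0.001 to 0.099 over 13 alternatives, and 10 of them kept the call. Mt2 had 0.659 ± 0.232 CPM with saringosterol and 0.41 ± 0.163 CPM with vehicle (0.66 ± 0.42, adjusted p = 0.38).

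The other members in microglia missed the threshold. Mtf1 had 29.2, 27.7 and 26.6 CPM with saringosterol, against 33.2, 29.6 and 33.0 CPM with vehicle. All saringosterol libraries lay below all vehicle libraries, with a log2 change of -0.21 ± 0.07 (adjusted p = 0.067, and 0.045 without vehicle microglia replicate 2). Slc30a1 had 67.2 ± 2.32 CPM with saringosterol and 61.6 ± 0.982 CPM with vehicle (0.12 ± 0.05, adjusted p = 0.16). Slc39a10 had 113 ± 1.61 and 107 ± 3.53 CPM (0.08 ± 0.05, adjusted p = 0.36), and Slc39a14 had 17.1 ± 2.13 and 15.4 ± 1.02 CPM (0.14 ± 0.10, adjusted p = 0.41).

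In BMDM none of the members was called with saringosterol, by edgeR or DESeq2, where edgeR called 10.7% of all genes (5.53% higher, 5.12% lower); 2 members had an unadjusted p under 0.05. These were Mt1, with 85.1, 86.5 and 79.2 CPM against 76.1, 79.3 and 67.0 CPM with vehicle (log2 change 0.16 ± 0.07, adjusted p = 0.17), and Slc39a10, with 68.7, 79.7 and 75.7 CPM against 57.9, 59.5 and 73.1 CPM (0.22 ± 0.09, adjusted p = 0.12). Both pairs of groups overlapped. Without saringosterol BMDM replicate 3, the library with high interferon genes, Mt1 stood at 0.20 (adjusted p = 0.097) and Slc39a10 at 0.21 (adjusted p = 0.17). Slc39a10 passed the threshold in 3 of 13 alternatives, among them without vehicle BMDM replicate 3 (0.33, adjusted p = 0.023), and the adjusted p ranged from 0.023 to 0.35. Slc39a14 had a log2 change of 0.17 ± 0.17, which became 0.03 without replicate 3. The changes of Mt2, Mtf1 and Slc30a1 were 0.22 ± 0.44, 0.13 ± 0.09 and 0.10 ± 0.06, with adjusted p-values of 0.8, 0.38 and 0.33.

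In hepatocytes none of the members was called with saringosterol, by edgeR or DESeq2, where edgeR called 1.91% of all genes (0.888% higher, 1.02% lower); 1 member, Mt2, had an unadjusted p under 0.05. Mt2 had 7.62, 11.8 and 9.06 CPM with saringosterol, against 3.59, 7.31 and 4.32 CPM with vehicle. The groups did not overlap, yet each group spread widely, and the log2 change of 0.94 ± 0.32 had an adjusted p of 0.21. Mt2 passed in 2 of 13 alternatives. They were edgeR without vehicle hepatocytes replicate 2, the highest vehicle library (1.31, adjusted p = 0.0034), and edgeR with a replicate block (0.97, adjusted p = 4.5e-06). Replicate 2 was the highest library for Mt2 in both groups, and also in GW hepatocytes, which share the fit. Mt1 had 281, 325 and 258 CPM with saringosterol, against 277, 272 and 281 CPM with vehicle (0.09 ± 0.06, adjusted p = 0.54), and without saringosterol hepatocytes replicate 2 its change was -0.01. Slc39a10 had 22.4, 17.7 and 19.9 CPM with saringosterol, against 22.01, 23.4 and 22.8 CPM with vehicle (-0.16 ± 0.09, adjusted p = 0.37). Mtf1, Slc30a1 and Slc39a14 changed by -0.05 ± 0.06, 0.03 ± 0.07 and -0.01 ± 0.05, with adjusted p-values of 0.71, 0.89 and 0.98.

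The 2 compounds were given at different doses, 1 µM GW and 10 µM saringosterol, and share the vehicle libraries, so their values stand side by side without a comparison. In microglia Mt1 averaged 175 ± 7.57 CPM with GW, 82.4 ± 6.30 CPM with saringosterol and 71.5 ± 1.96 CPM with vehicle. In BMDM it averaged 116 ± 7.13, 83.6 ± 3.87 and 74.1 ± 6.35 CPM with GW, saringosterol and vehicle, and in hepatocytes 336 ± 11.8, 288 ± 34.3 and 277 ± 4.40 CPM. For Slc39a10 the corresponding means were 74.1, 113 and 107 CPM in microglia and 53.4, 74.7 and 63.5 CPM in BMDM.

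**Figure D4:**
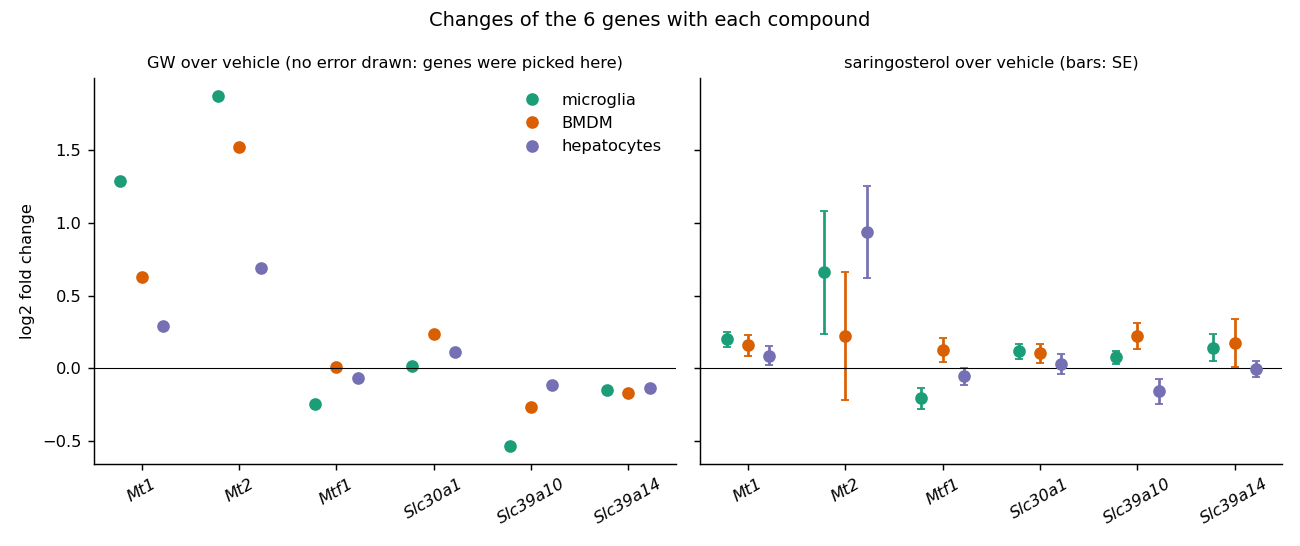
Log2 fold changes of the 6 genes for GW over vehicle (left) and saringosterol over vehicle (right) in microglia, BMDM and hepatocytes; bars on the right are standard errors, and none are drawn on the left because the genes were chosen there. Mt1 stands at 1.29, 0.63 and 0.29 under GW and at 0.20, 0.16 and 0.09 under saringosterol.

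Whether the saringosterol response itself differed between cell types was tested for each pair. Slc39a10 was the 1 member called, for BMDM against hepatocytes, where 10.1% of all genes were called (6.98% higher, 3.13% lower). Its response was 0.42 ± 0.12 higher on the log2 scale in BMDM than in hepatocytes (edgeR adjusted p = 0.022); it had 74.7 ± 5.57 against 63.5 ± 8.34 CPM in BMDM and 19.98 ± 2.33 against 22.7 ± 0.687 CPM in hepatocytes, saringosterol before vehicle. The difference was 0.42 with an adjusted p of 0.035 without saringosterol BMDM replicate 3. It missed the threshold without saringosterol BMDM replicate 2 (0.06), saringosterol hepatocytes replicate 2 (0.088), vehicle BMDM replicate 1 (0.078) or vehicle BMDM replicate 2 (0.066), and the adjusted p ranged from 0.0018 to 0.088 over 18 alternatives.

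For microglia against BMDM (2.01% of genes called, 0.769% higher and 1.24% lower) none of the members was called by edgeR. Mtf1 had an unadjusted p under 0.05 and was called by DESeq2 (adjusted p = 0.017): its response differed by -0.34 ± 0.10 (edgeR adjusted p = 0.066, range 0.017 to 0.19). It also passed without saringosterol BMDM replicate 2 (0.036) or vehicle microglia replicate 2 (0.044), and stood at -0.31 (adjusted p = 0.14) without saringosterol BMDM replicate 3. For microglia against hepatocytes (1.18% of genes called, 0.906% higher and 0.274% lower) none was called by edgeR or DESeq2, and 1, Slc39a10, had an unadjusted p under 0.05 (0.27 ± 0.12, adjusted p = 0.34). For Mt1 the response differed by 0.03 ± 0.10 between microglia and BMDM, by 0.15 ± 0.10 between microglia and hepatocytes and by 0.12 ± 0.10 between BMDM and hepatocytes, with adjusted p-values of 0.94, 0.59 and 0.5.

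The other carriers of both families were described as a list of 21 genes, of which 15 were tested in microglia, 15 in BMDM and 18 in hepatocytes. In GW microglia 2 genes of the ZnT family rose and 5 of the ZIP family fell, where 28.7% of all genes were called. Slc39a8, the ZIP8 importer of zinc and manganese, had 40.6, 35.8 and 40.9 CPM with GW, against 49.8, 55.1 and 58.4 CPM with vehicle (-0.48 ± 0.07, adjusted p = 7.2e-07). Slc39a2 fell to 1.03 ± 0.329 CPM with GW, against 2.42 ± 0.227 CPM with vehicle (-1.24 ± 0.25, adjusted p = 0.00028), and Slc39a4 and Slc39a7 fell by 0.89 and 0.28. The fifth was Slc39a6, which fell by 0.17 and is named here only to complete the count. The ZnT genes Slc30a5 and Slc30a9 rose by 0.21 and 0.31. Slc30a9 had 72.4, 71.7 and 68.4 CPM with GW, against 57.7, 56.6 and 55.6 CPM with vehicle (adjusted p = 9.3e-06). The median change over the list was 0.00, beside -0.01 over all genes, and over the importers alone it was -0.15.

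With saringosterol in microglia, where 10.8% of all genes were called, the ZnT genes Slc30a5 and Slc30a9 rose, by 0.16 ± 0.05 and 0.27 ± 0.05 (adjusted p = 0.018 and 0.00032). No importer of the list was called. The count was 1 without vehicle microglia replicate 1 or replicate 3 and in the fit of all 27 libraries. Slc30a9 had 70.1, 67.1 and 68.1 CPM with saringosterol, clear of its vehicle libraries. In BMDM, where 10.7% of all genes were called, 3 of 15 carriers rose with saringosterol: Slc39a8 by 0.42 ± 0.10, Slc39a6 by 0.23 ± 0.07 and Slc30a5 by 0.22 ± 0.07 (adjusted p = 0.013, 0.033 and 0.037). None of them was called without saringosterol BMDM replicate 3 (Slc39a8 0.28, adjusted p = 0.072) or vehicle BMDM replicate 2, and 1 was called without saringosterol BMDM replicate 2 or vehicle BMDM replicate 1. The list's medians were 0.02 in microglia and 0.07 in BMDM, beside 0.00 and -0.01 over all genes.

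With GW in BMDM, where 10.4% of all genes were called, 1 of 15 carriers rose, Slc39a9, which encodes ZIP9 (0.25 ± 0.08, adjusted p = 0.041), and none was called without GW BMDM replicate 2 or 3 or vehicle BMDM replicate 1 or 2. The count was 0 with plain library totals and 3 in the fit of all 27 libraries. In hepatocytes no other carrier was called with either compound by edgeR or DESeq2; 0 had an unadjusted p under 0.05 with GW and 2 with saringosterol. Slc39a4, the most abundant carrier there, had 339, 308 and 352 CPM with GW, 313, 315 and 324 CPM with saringosterol and 352, 306 and 335 CPM with vehicle, and all 3 groups overlapped. Of the other metallothioneins, Mt3 passed the filter of the single cell type fits in microglia alone, where neither compound changed it past the threshold. Under vehicle it had 0.899 ± 0.44 CPM in microglia and 0.169 ± 0.0717 CPM in BMDM (log2 difference 2.37 ± 0.57, adjusted p = 0.00081), and in hepatocytes it stood under the floor, at 0.0437 CPM (adjusted p = 5.8e-07 against microglia and 0.027 against BMDM). The remaining one, Mt4, had at most 6 counts in any library.

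Lists of other metal and stress genes are given as counts, with no test of the lists. In GW microglia, where 28.7% of all genes were called (13.4% higher, 15.2% lower), 1 of 7 oxidative stress genes rose and 5 fell; Nqo1, a quinone reductase, had 10.0 ± 1.33 CPM with GW and 25.6 ± 1.67 CPM with vehicle (-1.36 ± 0.09, adjusted p = 8.4e-13). Of 8 glucocorticoid-induced genes 1 rose and 4 fell, led by the phosphatase gene Dusp1 (41.0 ± 2.63 against 107 ± 6.39 CPM, -1.40 ± 0.05, adjusted p = 1.3e-18). Of 5 heat shock genes 2 rose and 2 fell, of 8 copper genes 2 rose and 2 fell, and of 11 iron genes 5 rose and 3 fell. Among the iron genes Hmox1, the haem-degrading enzyme, had 1154 ± 58.0 CPM with GW and 760 ± 20.7 CPM with vehicle (0.59 ± 0.04, adjusted p = 5.3e-14), and Tfrc, the transferrin receptor, rose by 0.55 ± 0.05. The medians of these lists, in the order given, were -0.28, -0.28, -0.01, -0.01 and 0.23.

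In GW BMDM, where 10.4% of all genes were called, the counts were 1 higher and 2 lower of 7 oxidative stress genes, 2 and 1 of 9 glucocorticoid-induced genes, 3 and 0 of 5 heat shock genes, 0 and 1 of 8 copper genes, and 2 and 2 of 11 iron genes. The chaperone gene Hspa1a had 17.96 ± 1.24 CPM with GW and 6.39 ± 1.20 CPM with vehicle (1.48 ± 0.16, adjusted p = 6.5e-06), whereas in GW microglia it had 9.67 ± 0.911 CPM against 14.97 ± 1.18 CPM with vehicle (-0.64 ± 0.10, adjusted p = 7.5e-06). The difference between the cell types was not tested. In GW hepatocytes (1.11% of all genes called) 2 of 12 iron genes and 1 of 9 glucocorticoid-induced genes rose. They were Steap3 (0.57 ± 0.06), Cp (0.20 ± 0.04) and Errfi1 (0.76 ± 0.05), which encode a ferrireductase, the copper-carrying ferroxidase ceruloplasmin and an inhibitor of growth factor receptors.

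With saringosterol in microglia (10.8% of all genes called), 2 of 7 oxidative stress genes rose and 1 fell, 1 of 8 glucocorticoid-induced genes rose and 3 fell, 1 of 5 heat shock genes rose, and 3 of 11 iron genes rose and 2 fell; Tfrc rose by 0.46 ± 0.05 and Hmox1 by 0.34 ± 0.04. In saringosterol BMDM (10.7%), 2 of 7 oxidative stress genes fell, 2 of 9 glucocorticoid-induced genes rose and 1 fell, 2 of 5 heat shock genes rose and 1 of 8 copper genes fell. The copper chaperone gene Atox1 had 199 ± 5.74 CPM with saringosterol and 233 ± 10.4 CPM with vehicle (-0.25 ± 0.06, adjusted p = 0.012). Without saringosterol BMDM replicate 3, 2 of 7 oxidative stress genes rose and 2 fell, 2 of 9 glucocorticoid-induced genes rose and 2 fell, 2 of 6 heat shock genes rose, 1 of 8 copper genes fell, and 1 of 11 iron genes rose and 1 fell; Atox1 stood at -0.24 (adjusted p = 0.016). In saringosterol hepatocytes (1.91%), 2 of 12 iron genes rose and 1 fell, and 1 of 9 glucocorticoid-induced genes rose, Errfi1 (0.38 ± 0.05, adjusted p = 5.7e-05). Slc40a1, the iron exporter ferroportin, had 168 ± 7.76 CPM against 144 ± 3.28 CPM (0.26 ± 0.05, adjusted p = 0.0025).

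The genes most like Mt1 were sought by Pearson's r of log2(CPM + 1), centred within each cell type, over the 27 libraries and 13385 genes that passed the filter in all 3 cell types. The 5 highest were Idh1 (r = 0.95), Tmem135 (0.949), Elovl5 (0.949), Apoe (0.931) and Lpcat3 (0.928). Idh1 encodes a cytosolic NADPH-producing dehydrogenase, Elovl5 a fatty acid elongase, Apoe a lipid-carrying apolipoprotein and Lpcat3 a phospholipid-remodelling acyltransferase; Apoe and Lpcat3 are known targets of liver X receptors. The correlations are a description over libraries that share treatments and controls, and carry no p. They include the GW and vehicle libraries on which Mt1 was picked. Genes that rise with GW therefore tend to rank high by that choice, and genes that fall with GW tend to rank low. Within microglia these 5 genes had r between 0.978 and 0.991 with Mt1, within BMDM between 0.907 and 0.943, and within hepatocytes between 0.29 and 0.755, lowest for Apoe.

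Among the members, Mt2 ranked 531 of 13385 for likeness to Mt1 (r = 0.692), Slc30a1 ranked 3414 (0.283), Slc39a14 11771 (-0.48) and Mtf1 12003 (-0.523). Slc39a10 ranked 13248, near the opposite end, with r = -0.814 over all libraries and -0.95 within microglia. Within BMDM Slc30a1 had r = 0.817 with Mt1, and within microglia -0.134. Idh1 had 644, 374 and 305 CPM in GW, saringosterol and vehicle microglia, and Elovl5 261, 143 and 107 CPM.

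**Figure D5:**
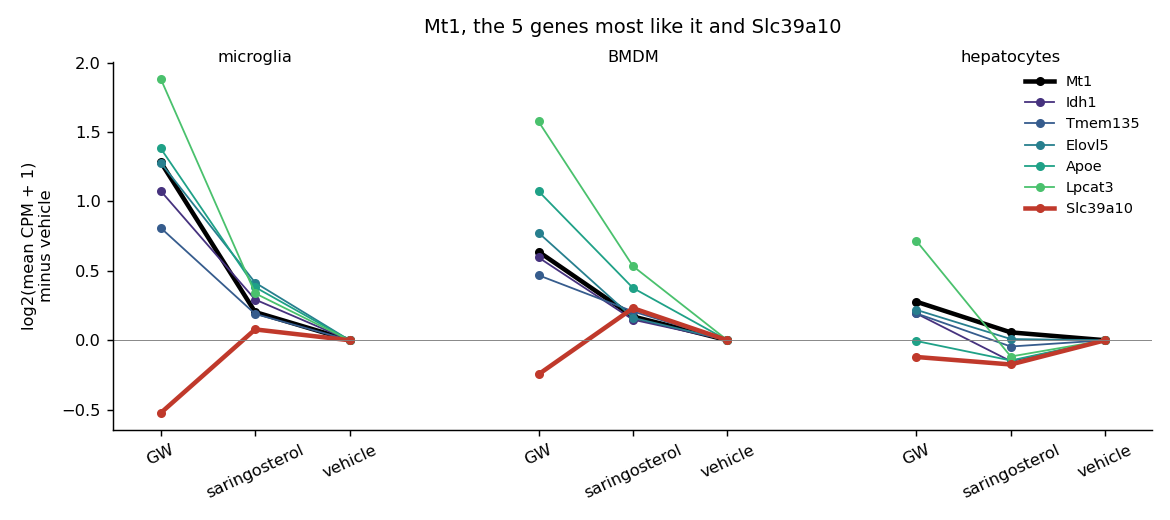
Group means as log2(mean CPM + 1) minus the vehicle mean of the same cell type for Mt1 (black), the 5 genes most like it (thin lines) and Slc39a10 (red), under GW, saringosterol and vehicle. In microglia the thin lines keep the order of Mt1, highest under GW and lowest under vehicle, though the sizes of their changes differ. There r within the cell type lies between 0.978 and 0.991, against 0.29 to 0.755 in hepatocytes. Slc39a10 lies below 0 under GW in each cell type.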

How the data were processed

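Per the labels' protocols, Quick-RNA Miniprep Plus columns gave the RNA and a SMARTer Ultra Low kit with oligo-dT priming the libraries. The submitters' processing notes name bcl2fastq, STAR 2.5.1a, featureCounts 1.4.6-p5 and GRCm38; the sources used here do not state annotation release, strand or multi-mapping settings. The authors deposited whole-number counts of reads and TPM values, which are scaled to length and library and were not tested. No count or TPM differed between the series table and the single-library files; 168 identifiers stood on several identical lines and were used once.

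Tests used the deposited counts, in edgeR 4.0.16 (R 4.3.3). The 9 libraries of a cell type shared 1 fit: filterByExpr (16065 genes in microglia, 15416 in BMDM, 16098 in hepatocytes), TMM scaling, quasi-likelihood F test with robust dispersion, and Benjamini-Hochberg adjustment over all genes tested, called at an adjusted p under 0.05. Cell types under vehicle and differences in response came from 1 fit of all 27 libraries (18979 genes). Standard errors (SE) of edgeR log2 changes were derived from the F statistic, as the absolute change divided by the square root of F. CPM values are TMM-scaled over the 27 libraries; marker and interferon sums use plain totals. The fits were tested on simulated counts. DESeq2 1.42.0, limma-voom (limma 3.58.1), other scalings, no filter, a replicate block and leaving out each library were tried as alternatives. Promoter letters are RefSeq's (GRCm38.p6). No pair of libraries within a group was identical, and chi-square divided by its degrees of freedom was 3.77 to 37.4 over the 27 pairs.

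The members and lists were chosen with earlier results of these data known. Beyond the members, a gene of a list was named when called, up to the 4 with the largest change per list and comparison, zinc carriers also for being among the 3 highest in TPM in a vehicle cell type, and the 5 genes most like Mt1 by rank. The interferon genes were listed after their values were seen.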

Additional observations from a re-analysis of the deposited data

Results flagged for a closer look

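The saringosterol response of 4 zinc importer genes was higher in BMDM than in hepatocytes by the test of the difference itself (edgeR, 1 fit of all 27 libraries), where 10.1% of all genes were called (6.98% higher, 3.13% lower). These 4 were 1 of the 6 members and 3 of the 19 other carriers tested. The shares were not tested against that of all genes. The log2 difference was 0.42 for Slc39a10 (adjusted p = 0.022), 0.30 for Slc39a6 (adjusted p = 0.015), 0.43 for Slc39a7 (adjusted p = 0.049) and 0.32 for Slc39a9 (adjusted p = 0.031). Without saringosterol BMDM replicate 3 the differences were 0.42 (adjusted p = 0.035) for Slc39a10, 0.26 (0.046) for Slc39a6, 0.42 (0.085) for Slc39a7 and 0.32 (0.042) for Slc39a9. Slc39a9 had 77.6, 76.5 and 77.3 CPM in saringosterol BMDM, against 60.0, 62.7 and 73.5 CPM in vehicle BMDM, and 76.1, 72.0 and 76.9 CPM in saringosterol hepatocytes, against 82.8, 74.8 and 80.9 CPM in vehicle hepatocytes. Apart from Slc39a10, the number of carriers called here was 0 to 5 when 1 library was left out (0 without saringosterol hepatocytes replicate 2, vehicle BMDM replicate 1 or vehicle hepatocytes replicate 3, and 1 without vehicle hepatocytes replicate 1) and 1 with plain library totals.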

How the results depend on the processing

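Mt2 had only 8 to 71 counts per microglia or BMDM library, and each group had 3 libraries. The treatment counts of called genes were 1743 (saringosterol) in microglia, 1643 (saringosterol) and 1606 (GW) in BMDM, and 307 (saringosterol) and 178 (GW) in hepatocytes. In the fit of all 27 libraries they were 690, 2471, 2442, 57 and 88. For saringosterol in hepatocytes DESeq2 gave 470, no filter 491 and the replicate block 782; the block gave 286 for GW in hepatocytes. For the response of microglia against BMDM (382 called) DESeq2 gave 908 and no filter 700, and against hepatocytes (224) DESeq2 gave 443. Whether replicate numbers pair the samples is not known. As deviations from group means, same-numbered libraries correlated with vehicle at 0.02 to 0.26 for GW and at -0.27 to 0.1 for saringosterol. These values do not settle it.

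Leaving out 1 library each gave 846 to 1754 (saringosterol) and 896 to 1696 (GW) called genes in BMDM, 86 to 803 (saringosterol) in hepatocytes, and 161 to 681, 131 to 269 and 1220 to 2381 for the responses of microglia against BMDM, microglia against hepatocytes and BMDM against hepatocytes (1918 called). The highest and lowest for hepatocytes came without vehicle hepatocytes replicates 2 and 3. With plain library totals the calls, higher and lower, were 1597 and 3248 for GW in microglia (2158 and 2448 with TMM), 717 and 971 for GW in BMDM (872 and 734), 174 and 106 for saringosterol in hepatocytes (143 and 164), and 8929 and 5359, and 9017 and 5321, for hepatocytes against microglia and BMDM under vehicle. For the saringosterol response of BMDM against hepatocytes they were 798 and 750 (1324 and 594 with TMM). For that of microglia against hepatocytes they were 120 and 79 (172 and 52 with TMM).

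Of the tested member values, those whose sign turned were not called: Slc39a14 with saringosterol in hepatocytes (0.014 with plain totals; -0.0186 to 0.0184 on leaving 1 library out), Slc30a1 there (-0.000477 in the fit of all 27; -0.011 to 0.101), Mt1 there (-0.013 to 0.176), Mt2 with saringosterol in BMDM (-0.097 to 0.404), and Mt2 between vehicle microglia and BMDM (-0.447 to 0.101). For the responses of microglia against BMDM these were Slc30a1 (-0.0203 by DESeq2, -0.0201 with RLE factors; -0.0144 to 0.0469), Mt1 (-0.0169 to 0.100) and Slc39a14 (-0.211 to 0.094), and against hepatocytes Mt2 (-0.607 to 0.0271). The cause was not tested. Mt2 with saringosterol in hepatocytes passed with the replicate block (0.97, adjusted p = 4.5e-06). The calls of members between cell types under vehicle held in 12 of 12 alternatives.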
